A study of Arabidopsis thaliana with 3 samples.

Results

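Open flowers of ABAP1OE plants at stage 14 were compared with WT open flowers of the same stage on 2-colour arrays, and the ratios of all transcript probes of that comparison, 1 of the 3 stages in the series, are described here. The members were all probes for transcripts, with control spots left out. A ratio was given for 25555 of 26474 such probes, and 5413 of 5415 genes with a probe that lists no other gene had a value. ABAP1OE plants carry ABAP1 behind the constitutive 35S promoter of cauliflower mosaic virus, with an eGFP selection marker, in the Col-0 background, and the WT plants are Col-0. The flowers of each genotype were pooled, and the study could not obtain homozygous overexpressors. Flower buds at stage 13 and siliques at stages 15 to 16 of the same genotypes are the other comparisons. The labels give 3 replicates, which were combined into 1 log2 ratio per probe and stage, so no test and no error between plants can be given for any gene.

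ABAP1 is an armadillo and BTB domain protein that binds transcription factors of the TCP class and restrains DNA replication licensing and cell division. At stage 14 the flower is open, the anthers have shed pollen, the stigma is being pollinated, the nectaries secrete and the embryo sacs are mature. The RNA of such a flower therefore comes from sepals, petals, stamens and carpels together, and in a whole flower fewer cells of a type and less RNA per cell cannot be told apart. The study used the bud arrays to look for genes behind the pollen and embryo sac defects of ABAP1OE plants. The open flower arrays extend that comparison to the next stage.

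A positive ratio is likely to mean a higher level in ABAP1OE, because the sample title names ABAP1OE before WT, channel 1 holds ABAP1OE and the labels call WT the control. No probe lists ABAP1 in the annotation used here, so the overexpression itself could not be checked on these arrays, and ratios without intensities do not show whether the defining genes of a tissue are present.

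Most transcripts differed little between ABAP1OE and WT open flowers. Between their quartiles the genes lay from -0.16 to 0.15 on the log2 scale, with a median of -0.01, and 50.1% were below 0 against 47.2% above. Between 2-fold and the level of the empty spots, 56 genes were lower in ABAP1OE (1.03% of 5413) and 65 were higher (1.20%). The lower genes made up 46.3% of these 121, so in this range about as many genes were higher as lower. The exact binomial 95% interval of 37.2% to 55.6% covers counting error only. It takes the genes as independent, and genes are not replicates. The balance belongs to this range, since over all genes at least 2-fold from WT 68.8% were lower. A further 96 genes (1.77%) were at or below -2.2141, called here the empty spot level, and 4 (0.0739%) were above 2.2.

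The lowest range is also where spots without a probe lie. Of 36 empty spots, 28 (77.8%) were at or below that level and 23 stood at exactly -2.2141, while 4 lay in the middle range on the lower side, 0 on the higher side, 3 under 2-fold and 1 at 2.76. Among the genes, 68 of the 96 had that same value and 3 stood at the 100-fold limit of -6.64. Sizes at or below the level are therefore given apart and are not read as levels. The 12 other control spots with values, named atc, lay between -0.18 and 0.33.

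**Figure D1:**
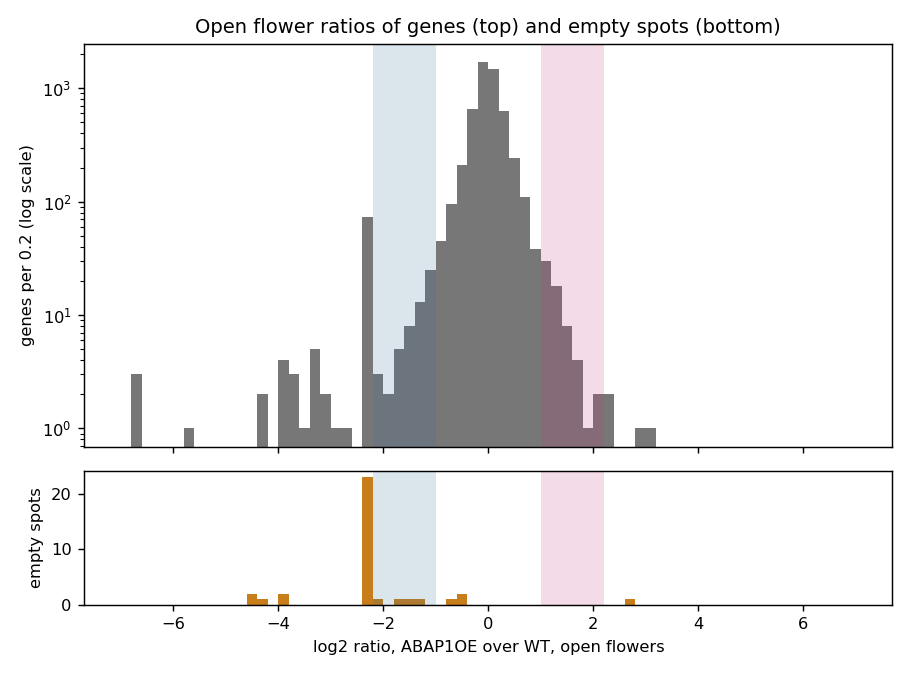
Number of genes (top, logarithmic axis) and of empty spots (bottom) against the log2 ratio of ABAP1OE over WT in open flowers, in steps of 0.2. The shaded ranges hold the 56 lower (left) and 65 higher (right) genes between 2-fold and the empty spot level, and the narrow peak at -2.2141 holds 68 genes and 23 of the 36 empty spots at 1 value.

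Among the genes lower in ABAP1OE open flowers and above the empty spot level, 3 have a gene symbol, and they act in auxin turnover, in the cell wall and in nitrogen metabolism. GH3.3, an auxin-inducible enzyme that joins indole-3-acetic acid to amino acids and so takes it out of use, was at -1.76, or 3.38-fold lower. Its ratio was 0.01 in flower buds and -1.53 in siliques, so it stood near WT before the flower opened and was past 2-fold at both later stages. GH9B16, of the glycosyl hydrolase family 9 whose members cut beta-1,4-glucans of the cell wall, was at -0.41 in buds, -1.62 in open flowers and -1.45 in siliques. The glutamine amidotransferase gene GAT1_2.1 was at -0.25 in buds, -1.21 in open flowers and -0.69 in siliques.

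GH3.3 had 1 probe and no shared one. The related genes GH3.1 and GH3.9 were near WT in open flowers, at 0.01 and -0.18. GH9B16 was at -1.14 when a probe that it shares with other genes was averaged in, and GAT1_2.1 at -0.35, under 2-fold.

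The 15 lowest genes of this range ran from -2.07 to -1.501. Apart from GH3.3 and GH9B16 they are known here by locus only, and no role is given for them except AT2G15340, a glycine-rich protein gene expressed in petals and pollen according to the study's gene list. AT2G15340 was at -1.41 in buds, -1.57 in open flowers and -0.92 in siliques. AT1G66420 was at -0.98 in buds, -2.03 in open flowers and 0.15 in siliques. AT3G59260 was at -0.19 in buds, -1.86 in open flowers and -0.31 in siliques. On their own probes both stood past 2-fold in open flowers and not at the stages around it. With a shared probe averaged in, AT1G66420 was at -1.14 and AT3G59260 at -0.96, under 2-fold.

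AT5G25870 was at -1.53 in buds, -2.06 in open flowers and -3.49 in siliques. AT4G17260 was at -2.09, -1.57 and -2.35 at the same stages. Both were low at all 3 stages, with the silique values in the range of the empty spots. AT3G50180 (-1.84), AT2G30810 (-1.74), AT3G13370 (-1.67), AT3G29791 (-1.57) and AT1G72580 (-1.501) were under 2-fold in buds. Among these 5 the silique ratio was past 2-fold only for AT3G50180, at -1.63.

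The mean of AT5G51840, -2.07, came from 2 probes at -3.70 and -0.44, neither of which lay in the middle range. The same held for AT3G62710, whose -1.46 was the mean of a probe at the empty spot level and one at -0.71. These are the only genes among the 121 whose own probes gave different values.

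Among the 65 higher genes, 5 have a symbol, and they belong to nectar secretion, endoreduplication, the MADS-box family and the cytochrome P450 family. SWEET9, the nectary sugar exporter that nectar secretion depends on, was at -1.08 in buds, 1.36 in open flowers, or 2.57-fold higher, and 1.11 in siliques. BIN4, a component of the DNA topoisomerase VI complex needed for endoreduplication, was at 1.34. Its bud value of -6.64 was at the 100-fold limit and its silique value was 3.18, both beyond the middle range. All its values come from 1 probe, and without intensities its open flower ratio cannot be taken as a reliable size. AGL77 was at -0.76 in buds, 1.28 in open flowers and 0.52 in siliques.

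AGL95, a MADS-box gene like AGL77, was at 0.96 in buds, 1.13 in open flowers and 0.86 in siliques, on the higher side at every stage. The MADS-box genes as a group were not higher. The 16 with a probe of their own had a median of -0.02, with 10 below 0 and 6 above. The cytochrome P450 gene CYP71B29 was at 0.83 in buds, 1.04 in open flowers and 0.37 in siliques. With shared probes averaged in AGL95 was at 0.70, under 2-fold, while no further probe lists the other 4, so their values stayed as they were.

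The 15 highest genes of the middle range ran from 1.41 to 2.16 and are all known here by locus only. AT2G02570 led with 2.16, with -0.81 in buds and the empty spot level in siliques. AT1G44740 followed with 2.07, and its bud ratio was at the empty spot level. AT3G53770 (1.86), AT1G48200 (1.71) and AT4G16220 (1.66) were also higher in buds, at 2.70, 2.10 and 1.96. In siliques these 3 were under 2-fold, at -0.39, 0.23 and 0.77.

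AT1G53010 was at 0.74 in buds, 1.76 in open flowers and 0.68 in siliques, on the same side throughout. AT5G07160 was at -0.73 in buds, 1.70 in open flowers and -0.53 in siliques. AT3G47660 was at 0.15 in buds, 1.45 in open flowers and 1.496 in siliques on its own probe, past 2-fold at both later stages. AT2G41610 (1.496), AT5G51530 (1.46), AT5G18940 and AT4G39290 (both 1.42) and AT4G24950 (1.41) were at or above 0 at all 3 stages. Among these only AT5G18940 passed 2-fold at another stage, at 1.30 in buds. AT2G40780, at 1.59 in open flowers, stood at the empty spot level in buds and at -0.07 in siliques. Averaging in shared probes put AT3G47660 at 0.90, AT5G51530 at 0.81, AT5G07160 at 0.75, AT2G40780 at 0.69 and AT5G18940 at 0.51 in open flowers. All of these were under 2-fold, while AT4G16220 stayed past it at 1.02. On shared probes alone AT5G18940 (-0.41), AT2G40780 (-0.21) and AT5G07160 (-0.20) were below 0. AT5G51530 (0.15), AT3G47660 (0.34) and AT4G16220 (0.38) were above 0 there.

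**Figure D2:**
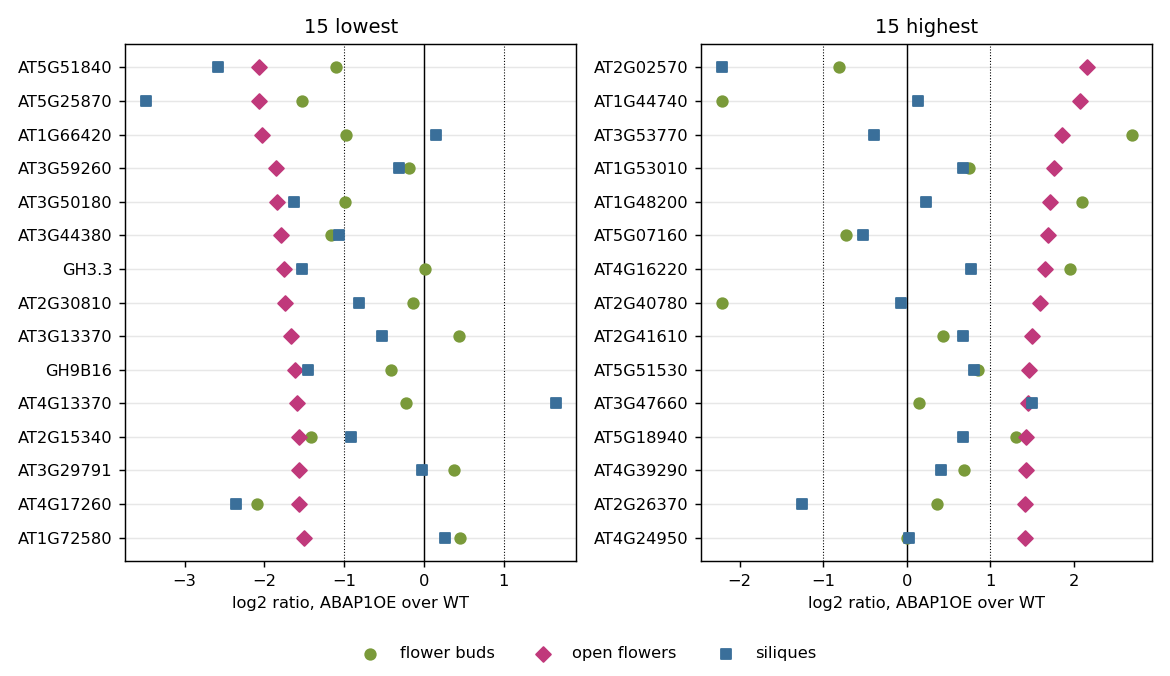
Log2 ratio of ABAP1OE over WT in flower buds, open flowers and siliques for the 15 lowest (left) and 15 highest (right) genes of the middle range of open flowers, 1 combined ratio per point, with dotted lines at 2-fold. GH3.3 stood at 0.01 in buds, -1.76 in open flowers and -1.53 in siliques, while AT4G24950 stood at 1.41 in open flowers and near 0 at the other stages.

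At the edges of the range, AT2G27650 (-1), AT5G64270 and AT1G29140 (both -1.01) were the last genes counted as lower, and GH9B11, another glycosyl hydrolase family 9 gene, was just outside at -0.99. On the higher side AT3G23360 and AT4G25330 (both 1.00) were the last counted and AT1G57550 was just outside at 0.99.

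Beyond 2.2 on the higher side stood AT5G55770 (2.22), AT1G10400 (2.33), AT5G02920 (2.90) and AT5G28740 (3.09). The last was the mean of 2 probes at -0.45 and 6.64 that point opposite ways. The other 3 were under 2-fold in buds and siliques.

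The genes at or below the empty spot level include 6 with a symbol. The tetraspanin gene TET12, which is expressed in sperm cells, was listed at -0.51 in buds, -3.68 in open flowers and 0.06 in siliques. CYTC6A, a chloroplast cytochrome c gene, was listed at -1.80 in buds, -2.29 in open flowers and -1.19 in siliques. The ubiquitin-conjugating enzyme gene UBC30, the MADS-box gene AGL85, the acetyl-CoA synthetase gene ACS and DRT101 stood at exactly that level. AT1G37010, AT3G60560 and AT5G56840 were at -6.64, followed by AT5G03870 (-5.67), AT5G14030 (-4.27) and AT1G66850 (-4.24). AT1G66850 had probes at -6.64 and 0.58.

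Of these 96 genes, 56 were also at or below it in buds, 36 in siliques and 28 at all 3 stages. Over all 5413 genes, 107 were so low in buds and 69 in siliques. In open flowers alone 32 were so low, and 20 were within 2-fold of WT at both other stages. Whether low signal put these genes there was not tested, because the files used here hold no intensities.

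On probes that list no other gene, the family medians shown here were under 2-fold in open flowers. Families were formed from the shared start of the gene symbol, and 13 with at least 5 genes are given in the plot of families. Their medians lay between -0.51 and 0.29, against -0.01 over all genes, from probes that list no other gene. In all 534 of the 5413 genes have a symbol, so most genes of the array enter no family.

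The lowest median, -0.51, was that of the 6 glycosyl hydrolase family 9 genes. GH9B16 (-1.62), GH9B11 (-0.99), GH9A4 (-0.81) and GH9C1 (-0.21) were below 0, and GH9B12 (0.07) and GH9B8 (0.24) above. The 3 lowest were below 0 at all 3 stages, and GH9B16 alone was past 2-fold. The 7 IQD genes, which encode calmodulin-binding proteins with an IQ67 domain, had a median of -0.36. IQD22 (-0.60), IQD19 (-0.40), iqd32 (-0.37), iqd15 (-0.36), IQD25 (-0.33) and IQD20 (-0.24) were below 0 and iqd33 (0.24) above. None passed 2-fold, and with shared probes averaged in the IQD median was -0.05.

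The 18 UDP-glycosyltransferase genes, which attach sugars to small molecules, split evenly, with 9 below 0, 8 above and a median of -0.01. UGT78D1, a flavonol rhamnosyltransferase gene, was the lowest at 0.01 in buds, -0.76 in open flowers and -0.15 in siliques. UGT85A5 was the highest at 0.48. The 10 serine carboxypeptidase-like genes ran from -0.54 (scpl25) to 0.66 (scpl33 and scpl44). The 6 TBL genes, related to O-acetylation of wall polysaccharides, ran from -0.77 (TBL41) to 0.31 (TBL16).

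**Figure D3:**
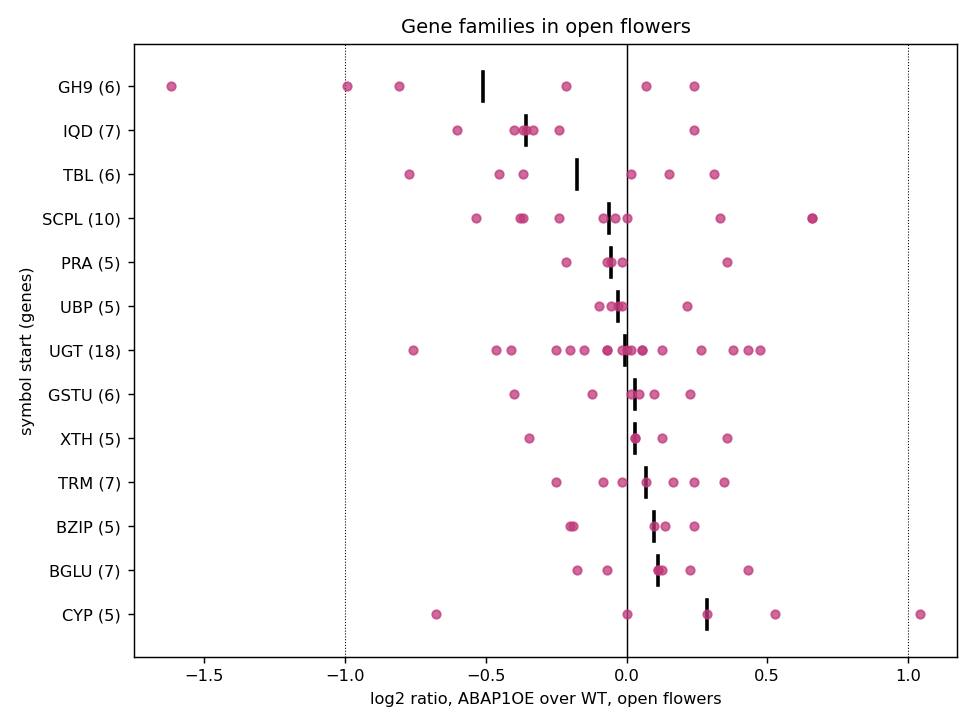
Log2 ratio of ABAP1OE over WT in open flowers for each gene (points) of 13 families with at least 5 genes, named by the start of the symbol with the number of genes in brackets. Black bars are medians, from -0.51 for GH9 to 0.29 for CYP, and the dotted lines mark 2-fold, which GH9B16 passed on the lower side and CYP71B29 on the higher side.

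Smaller sets of cell wall, auxin and transporter genes were also read. They were picked by patterns in the gene symbol, so genes under another symbol or known by locus only did not enter them. Of 5 expansin genes, whose products loosen the wall, EXPA21 (-0.80), EXPB5 (-0.58) and EXPA20 (-0.43) were below 0 and EXPA24 (0.38) and EXLB1 (0.40) above. With shared probes 17 expansin genes had a value, of which 13 were below 0 and 3 at least 2-fold lower, with a median of -0.16. No gene matched in this way as a pectin methylesterase or polygalacturonase, enzymes that act on wall pectin, had a probe of its own. Pectin genes known by locus only were not searched for. On shared probes 3 of 5 matched genes were at least 2-fold lower, with a median of -1.01. Over all 13977 genes read with shared probes 51.6% were below 0, 3.33% at least 2-fold lower and 0.715% at least 2-fold higher. Of the 4 genes for Aux/IAA repressors of the auxin response, IAA31 was at -0.70, IAA29 at -0.54, IAA33 at 0.10 and IAA15 at 0.30. In buds IAA31 stood at 0.07 and IAA29 at -0.04, near WT as GH3.3 did, but neither passed 2-fold in open flowers. Of 5 genes with a sugar transporter symbol SWEET9 alone was past 2-fold. SWEET8 was at -0.78, TMT1 at -0.43, SWEET10 at -0.04 and SWEET2 at -0.03. SAG29, a SWEET family gene under another symbol, is not among the 5 and was at 0.62. The 7 ion transporter genes had a median of -0.36, from NRAMP5 (-0.63) to CHX16 (0.46), and with shared probes the median over 17 genes was -0.10.

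Marker lists of the cell types in an open flower were thinly covered by probes of their own. Of 101 listed genes of mature pollen and pollen tubes 4 had one. All 4 were below 0: TET12 in the empty spot range, SETH1, needed for the glycosylphosphatidylinositol anchor in pollen tubes, at -0.33, the actin-bundling LIM protein gene PLIM2b at -0.29 and SETH2 at -0.08. When shared probes were kept, 15 pollen genes had a value, 13 were below 0 and 4 at least 2-fold lower, with a median of -0.29, against the 51.6% and 3.33% of all genes read that way. A shared probe reads several genes, so these are counts over the list and no gene is named from them. Of the tapetum and pollen wall genes SWEET8 was at -0.83 in buds, -0.78 in open flowers and -0.77 in siliques. ATA20 was at -0.26 in open flowers.

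Of 75 listed embryo sac and ovule genes 8 had a probe of their own, with a median of -0.11 and none past 2-fold. With shared probes 18 had a value, 14 of them below 0 and none past 2-fold, with a median of -0.11. The antipodal cell marker UBC31 was at -0.43 and the egg cell peptide gene EC1.1 at -0.37, against -2.19 and -1.61 in buds. AGL61, a central cell MADS-box gene, was at -0.40 in buds, 0.06 in open flowers and -1.79 in siliques. INO (-0.21), SPL (-0.11), DME (-0.11), FER (0.00) and EC1.5 (0.03) made up the rest. FBL17, an F-box gene of the male germline cell cycle that the study names along with AGL61, was at 0.03. Of 27 listed genes that the study names, only these 2 had a probe of their own. For AGL61 the paper reports a marked reduction in ABAP1OE by qRT-PCR, in flower buds by its caption and in ovaries by its text. Both the measure and the material differ from those of the open flower arrays.

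Of the other lists, nectary genes had SWEET9 at 1.36 and JMT, which makes methyl jasmonate, at 0.01, and JMT was also the measured gene of the jasmonate list. CES, a bHLH gene that acts in the transmitting tract, was at 0.88, and SEU, of the floral identity list, at -0.07. The senescence genes SAG29, a further SWEET family sugar transporter, and WRKY6 were at 0.62 and -0.03. Of the flavonol and anthocyanin genes UGT78D1 was at -0.76 and UF3GT at -0.32, and of the water deficit genes LTI30 was at -0.49 and LEA4-5 at -0.19. The light-harvesting and photosystem genes PSAN (0.28), PSBW (0.25) and PSBY (0.06) stood near WT. The glucosinolate genes BCAT4 (0.39), AOP3 (0.10) and UGT74B1 (-0.07) did too, as did GI of the clock (0.12). No defence gene of the list had a probe of its own.

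Of the genes that the study lists as changed in ABAP1OE flower buds, 46 had a probe of their own, a minor part of the list, and most of these were on the same side in open flowers by smaller amounts. The list was chosen on the bud arrays, and the open flower values took no part in that choice. Of the 40 listed genes that were lower in buds and have a probe of their own, 29 (72.5%) were below 0 in open flowers, with a median of -0.49, and 23 (57.5%) in siliques, with a median of -0.06. Over all genes 50.1% were below 0 in open flowers and 51.3% in siliques. In buds the same 40 genes had a median of -1.41, a size that the choice of the list fixed.

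Past 2-fold lower in open flowers were 3 of the 40, AT2G15340 (-1.57), the small heat shock protein-like gene AT5G37670 (-1.06) and AT1G29140 (-1.01), of the pollen Ole e 1 allergen family. With shared probes averaged in AT2G15340 was at -0.95 and AT5G37670 at -0.55, both under 2-fold, and AT1G29140 was as before. Just short of it was AT5G26060, of the plant self-incompatibility S1 family, at -0.98. The bZIP gene AT1G35490 (-0.86), the glycosyl hydrolase family 17 gene AT5G64790 (-0.82) and the cupin gene AT5G26700 (-0.80) followed. EXPB5, at -1.44 in buds, was at -0.58 in open flowers and -0.32 in siliques.

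The 16 genes whose description names pollen had an open flower median of -0.67, with 12 below 0, and the other 24 had -0.36, with 17 below 0. Some listed genes stood on the other side. AT1G57550, a low temperature and salt responsive protein gene, was at -1.52 in buds but 0.99 in open flowers, and the GDSL lipase gene AT1G20130 at -1.73 in buds but 0.52. Of the 6 listed genes higher in buds, 4 were above 0 in open flowers, AT2G24460 (1.03), AT5G15360 (1.02), AT5G46390 (0.43) and AT1G23830 (0.26), and AT4G11540 was at -0.50.

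**Figure D4:**
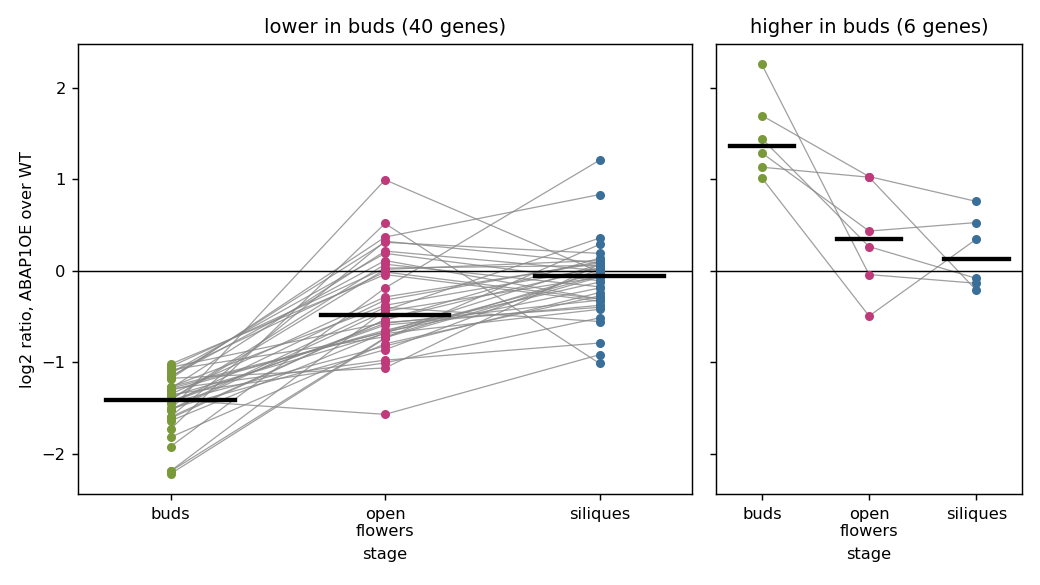
Log2 ratio of ABAP1OE over WT at 3 stages for the genes that the study lists as lower (40, left) or higher (6, right) in ABAP1OE buds and that have a probe of their own, each gene a line and black bars the medians. The median of the lower genes was -1.41 in buds, -0.49 in open flowers and -0.06 in siliques.

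Over the whole middle range, most of the 56 lower and 65 higher genes were on the same side at the stages around the open flower. Of the 56 lower genes, 43 (76.8%) were below 0 in buds and 44 (78.6%) in siliques, against 46.8% and 51.3% of all genes. At least 2-fold lower were 19 in buds (33.9%, against 4.40% of all genes) and 14 in siliques (25.0%, against 2.36%). Of the 65 higher genes 48 (73.8%) were above 0 in buds and 39 (60.0%) in siliques, against 50.4% and 46.7% of all genes. At least 2-fold higher were 14 in buds (21.5%, against 1.11%) and 9 in siliques (13.8%, against 1.24%). Values past 2-fold the opposite way were also more frequent than over all genes, except among the lower genes in buds, where there were 0. Of the higher genes 7 were at least 2-fold lower in buds (10.8%, against 4.40%) and 3 in siliques (4.62%, against 2.36%), most of them in the empty spot range, and of the lower genes 2 were at least 2-fold higher in siliques (3.57%, against 1.24%). The stages have separate RNA pools of both genotypes but share every probe, and the part of the probes in these shares was not tested.

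Past 2-fold the same way at all 3 stages and within the middle range at each were AT3G44380, AT3G62710 and AT5G24480. AT3G44380 was at -1.16 in buds, -1.79 in open flowers and -1.06 in siliques. AT5G24480 was at 1.21, 1.20 and 1.10 in buds, open flowers and siliques, nearly the same value throughout. AT3G62710, at -1.39, -1.46 and -1.47, rests on the 2 unlike probes given above. With shared probes averaged in, AT3G44380 was at -0.84 and AT5G24480 at 0.83 in open flowers, both under 2-fold.

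In open flowers alone, with both other stages under 2-fold, stood 27 genes of the 56 and 36 genes of the 65. Over all genes being under 2-fold at both stages is the usual case, so these are smaller parts than over all genes. There 4.40% were at least 2-fold lower and 1.11% higher in buds, and 2.36% and 1.24% in siliques. At another stage 6 lower and 7 higher genes were at or below the empty spot level, and there the comparison meets the empty spot range.

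The loci of the middle range were spread over the genome. AT5G24480 and AT5G24490 are direct neighbours in the gene order and were at 1.20 and -1.27. No other pair of the 121 was adjacent, and 2 further pairs with 3 genes between them, one of them GH3.3 and AT2G23210 (1.08), also lay on opposite sides. Chromosome 2 held 16 of the higher genes among 806 measured (1.99%), against 0.89% to 1.39% on the other chromosomes, and 7 of the lower genes (0.868%).

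Most values rest on 1 measurement. Of the 121 genes, 119 had a single value on probes of their own. On such probes no gene had different values that were all past 2-fold the same way. Of 284 genes with several probes, 227 had the same value on every one, so these are not separate measurements. A partial check comes from probes that list a gene together with others. Of the 56 lower genes 22 have such a probe, on which 13 were below 0 and 2 at least 2-fold lower, with a median of -0.07. Of the 65 higher genes 28 have one, on which 16 were above 0 and 1 was at least 2-fold higher, with a median of 0.07. Over all 1958 genes with both kinds of probe, the shared ones alone had 49.6% below 0 and 2.45% at least 2-fold lower, 48.4% above 0 and 1.07% at least 2-fold higher. The lower genes past 2-fold on both were AT5G08350, at -1.14 on its own probe and -1.10 on the shared one, and AT5G49920, at -1.23 and -3.89. The higher gene was AT1G55700, at 1.12 on both.

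The whole array gave a like balance within the middle range only. Over all 25555 probes, 261 (1.02%) were lower in the middle range and 266 (1.04%) higher. Beyond it the counts were unequal, with 521 (2.04%) in the empty spot range and 26 (0.102%) on the higher side. Probes without a gene symbol in the annotation, 12277 of them, had 123 lower and 130 higher.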

How the data were processed

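Deposited values were log2 ratios, which the authors made from 2-colour hybridisations to the Operon Arabidopsis oligo set, with both dyes used for each genotype. How background was corrected, ratios normalized and the 3 replicates averaged is not given in the sources used here (the paper refers to supplementary methods that were not used), and signal over background is unknown. The number of arrays limits the precision. The bud column had the same sign as the study's list for all 46 genes compared, and the open flower column was taken to run the same way.

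Of 26545 probes, 71 were control spots, 5784 had 1 gene symbol, 7497 several and 13264 none. Symbols came from the platform annotation, updated through gene identifiers with the RefSeq table of TAIR10.1. It did not match 28 probes, which were left out. Probes of a gene were averaged. Genes from 2-fold up to 2.2 in size on the log2 scale formed the middle range.

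Named genes were the 15 lowest and highest of that range, the values beyond it, up to 4 members of each list or family, genes of the study and genes past 2-fold at all stages. Others were chosen after their values were seen. These are GH3, GH9, IQD, TBL and SCPL members by symbol start and further embryo sac, expansin and sugar transporter genes. Edge cases and the bud-listed genes were chosen in this way too. Some families are not reported here. The members and lists were chosen with earlier results of these data known. Counting was tested on simulated data. The software was matplotlib 3.10.9, scipy 1.17.1, pandas 2.3.3 and numpy 2.4.6 under Python 3.11.15.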

Additional observations from a re-analysis of the deposited data

Results flagged for a closer look

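The values of 4 genes lay past 2-fold in opposite directions in open flowers and at another stage, all within the middle range. With 1 combined ratio at each stage these differences were not tested. SWEET9 was at 1.36 in open flowers and at -1.08 in buds. AT4G13370 was at -1.59 in open flowers and at 1.65 in siliques, and AT1G63205 at -1.44 and 1.26. AT2G26370 was at 1.42 in open flowers and at -1.25 in siliques. Averaging in shared probes put AT4G13370 at -0.78 and AT1G63205 at -0.76 in open flowers, both under 2-fold.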

How the results depend on the processing

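Including probes that list several genes gave 293 lower, 89 higher, 172 at or below the empty spot level and 11 beyond 2.2, with 76.7% of the middle range lower. Of the 293 genes 208 have a probe at or below that level whose mean with another probe falls in the middle range. Under it 22 genes of the 56 and 28 genes of the 65 took another value, of which 16 and 25 were under 2-fold, and none changed sign. With 1.5-fold as the limit 206 genes were lower and 222 higher, and with 3-fold 11 and 8, or 57.9% lower. Over all genes at least 2-fold from WT 68.8% were lower. Counting every transcript probe, a choice made after seeing the data, gave 261 lower, 266 higher, 521 and 26. The column median was 0, so centring changed nothing. Taking the probe farthest from 0, or leaving out probe values beyond the middle range, kept each count within 1.5 times, as did leaving out genes beyond it at another stage. No paired analysis was possible because the replicates were combined into 1 ratio, and no replicate could be left out. The promoter motifs were not run, since no promoter sequences were used here. Intensities were not used, so dim and bright genes cannot be told apart.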
